A study of Mus musculus with 14 samples.

Results

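B2 elements are a family of short interspersed elements (SINE) of rodents, and the measurements described here cover every B2 copy and B2 subfamily that was counted in mouse germ cells lacking the DNA methyltransferase DNMT3C. The copies were chosen by annotation alone: all 372923 entries of the family B2 among 3725827 transposable element (TE) copies in GRCm38, together with the 5 B2 subfamilies counted as wholes. These are B2_Mm1a with 18346 copies, B2_Mm1t with 23218, B2_Mm2 with 90007, B3A with 92925 and B3 with 148427. Polyadenylated RNA was sequenced from germ cells of littermate mice on a C57Bl6/J background, either homozygous for the Dnmt3C knockout allele (Dnmt3CKO/KO, here KO) or wild-type (WT). Spermatogonia (Spg), which precede meiosis, came from testes at postnatal day 14 and were sorted as live cells negative for B2M and positive for EpCAM (3 KO and 3 WT libraries). Spermatocytes (Spc), which are in meiosis, came from mice older than 20 days and were sorted by DNA content with Hoechst (4 KO and 4 WT libraries). KO germ cells arrest in the pachytene stage of meiosis, so that the WT spermatocyte sort holds later cells than the KO sort does, and genotype and stage reached cannot be told apart in spermatocytes.

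A B2 element descends from a transfer RNA gene and carries an internal promoter for RNA polymerase III, made of an A box and a B box. It encodes no protein and moves only with the enzymes of LINE-1 elements, which recognise the A-rich tail of its RNA. Many copies hold AATAAA, the signal for cleavage and polyadenylation, and a large number lie in introns and in the ends of genes, where RNA polymerase II transcribes them as part of another RNA. B2_Mm1a and B2_Mm1t are the young subfamilies of the mouse, B2_Mm2 is older, and B3 and B3A are the oldest and most diverged.

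Sequences could be read for 6272 of the 372923 copies, those inside exons of GENCODE transcripts without a coding sequence or inside RefSeq promoter windows (both GRCm38), which held 0.881% of the B2 reads. For each subfamily, the copy among them with most reads over all libraries (up to 300 bases, with a chromosome left out) is given, so that the promoter boxes and the polyadenylation signal can be seen beside the values that follow. Sequences are 5′ to 3′ on the strand of the element, and capitals mark, in this order along an element, the match to an A box, the match to a B box and AATAAA.
B2_Mm1a_dup13525: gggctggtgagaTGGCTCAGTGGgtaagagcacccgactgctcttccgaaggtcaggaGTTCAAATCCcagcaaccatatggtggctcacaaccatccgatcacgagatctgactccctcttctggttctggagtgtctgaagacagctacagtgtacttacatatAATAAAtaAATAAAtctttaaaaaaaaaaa
B2_Mm1t_dup9817: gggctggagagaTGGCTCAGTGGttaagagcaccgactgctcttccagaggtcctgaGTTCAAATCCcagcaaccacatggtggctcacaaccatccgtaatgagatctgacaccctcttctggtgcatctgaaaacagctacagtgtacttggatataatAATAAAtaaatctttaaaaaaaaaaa
B2_Mm2_dup57994: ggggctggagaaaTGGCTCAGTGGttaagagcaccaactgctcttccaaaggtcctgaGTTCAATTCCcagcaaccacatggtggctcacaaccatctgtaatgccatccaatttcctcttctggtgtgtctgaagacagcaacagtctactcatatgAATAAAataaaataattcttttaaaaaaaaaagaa
B3A_dup41981: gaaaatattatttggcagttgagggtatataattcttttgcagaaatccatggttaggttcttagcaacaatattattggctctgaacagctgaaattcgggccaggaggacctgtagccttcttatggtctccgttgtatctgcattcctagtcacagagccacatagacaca
B3_dup23161: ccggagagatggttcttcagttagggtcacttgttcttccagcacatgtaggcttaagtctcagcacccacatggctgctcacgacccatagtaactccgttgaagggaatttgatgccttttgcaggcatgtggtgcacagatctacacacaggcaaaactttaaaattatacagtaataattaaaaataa

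B2_Mm1a_dup13525 lies at chr12:102804213-102804408 on the plus strand, opposite to the gene Btbd7, in an exon of a retained-intron transcript. B2_Mm1t_dup9817 (chr7:141333748-141333934, plus strand) lies in an exon of a retained-intron transcript of Tmem80. B2_Mm2_dup57994 (chr11:20145970-20146162, plus strand) lies within 5000 bp past the end of the pseudogene Gm12030 on its own strand. It is opposite to an exon of the long non-coding RNA Gm12031. B3A_dup41981 (chr8:20270940-20271113, minus strand) lies in an exon of the pseudogene 6820431F20Rik. B3_dup23161 (chr3:88822424-88822615, plus strand) lies in an intron of the pseudogene 5830417I10Rik on the same strand. It is opposite to an exon of the long non-coding RNA 1500004A13Rik. The young pair was identical at 88.3% of aligned columns, and B2_Mm1t_dup9817 and B2_Mm2_dup57994 at 84.6%, whereas B2_Mm1a_dup13525 and B3_dup23161 shared 58.6% and B2_Mm1a_dup13525 and B3A_dup41981 49.8%. The A box began at base 13 and the B box at base 59 of B2_Mm1a_dup13525, and neither was found by these letters in the B3A and B3 copies shown.

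Across all readable copies of at least 150 bases, an A box was found in 78.8% of 241 B2_Mm1a copies, 61.3% of 320 B2_Mm1t copies, 46.1% of 1064 B2_Mm2 copies, 12.9% of 969 B3A copies and 11.5% of 1948 B3 copies. The B box was found in 90.0%, 83.1%, 70.8%, 4.13% and 15.9%, in the same order. AATAAA was found in 88.8% of B2_Mm1a, 90.3% of B2_Mm1t, 71.6% of B2_Mm2, 31.5% of B3A and 41.3% of B3 copies. All searches were on the strand of the element, and each motif was counted without regard to the others. In the first 190 bases of 32851 RefSeq promoter windows, searched on the strand of the gene, the A box was found in 2.85%, the B box in 1.09% and AATAAA in 8.39%. CG dinucleotides, the targets of DNA methylation, numbered 2.73 per copy in B2_Mm1a, 2.28 in B2_Mm1t, 1.11 in B2_Mm2, 1.70 in B3A and 1.52 in B3.

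Reads on the copies shown were counted in every library. B2_Mm2_dup57994 had 227, 239 and 291 reads in KO spermatogonia and 217, 150 and 190 in WT spermatogonia. Its spermatocyte reads were 156, 369, 287 and 115 in KO and 4, 39, 83 and 3 in WT. B2_Mm1a_dup13525 had 41, 62, 58 and 23 reads in KO spermatocytes and 0, 4, 10 and 1 in WT spermatocytes. B2_Mm1t_dup9817 had 58, 74, 61 and 39 reads in KO and 8, 23, 25 and 1 in WT spermatocytes. For these 3 copies the KO and WT spermatocyte libraries did not overlap, and the WT libraries of replicates 1 and 4 were the lowest. B3_dup23161 had 28, 53, 36 and 29 reads in KO and 10, 35, 49 and 20 in WT spermatocytes, which overlapped, as did the 51, 50, 26 and 13 reads of B3A_dup41981 in KO and its 0, 19, 36 and 23 in WT.

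Total counts per library ran from 40555700 to 53323700. Spermatocyte replicates 1 and 4 resembled each other closely in each genotype (chi-square per feature 11.6 in KO and 14.9 in WT, against 129 to 286 for the other pairs, where 1 would be sampling noise alone), so they were kept as separate samples and the subfamily tests, the listed genes and the limma tests of copies were also run with them joined. The authors call the replicates biological. Nothing in the labels says that same-group libraries came from separate animals, so the p-values measure the spread between these libraries. Counts of Dnmt3c itself ran in spermatogonia from 58 to 116 (KO) and from 53 to 89 (WT), and in spermatocytes from 52 to 57 (KO) and from 11 to 28 (WT). They overlapped between the genotypes in spermatogonia and were higher in every KO than in every WT spermatocyte library. Which part of the gene the allele lacks is not given in the sources used here, so these counts do not check the labels, and KO and WT stand for the libraries labelled so. The 10 spermatogonial marker genes summed to 411, 1002, 1022 and 423 CPM (counts scaled to the size of the library) in KO spermatocytes (replicates 1 to 4) and to 45.1, 146, 275 and 40.4 CPM in WT spermatocytes. The 9 pachytene markers summed to 254 to 532 CPM in KO against 9564 to 18332 CPM in WT spermatocytes, and the 8 spermatid markers to 2.26 to 10.2 against 65.8 to 1379 CPM. Sertoli markers summed to 240 to 870 CPM in KO and 108 to 404 CPM in WT spermatocytes, and Leydig markers to 45.8 to 275 and 12.3 to 25.8 CPM. The 6 macrophage markers summed to 21.6 to 109 CPM in KO and 3.96 to 5.64 CPM in WT spermatocytes, and the 5 peritubular markers to 15.1 to 145 and 3.22 to 9.40 CPM, both without overlap. The part of these cells in the results below was not tested. In such bulk samples, fewer cells of a type and less RNA per cell cannot be told apart.

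B2 sequences took a low and uneven share of the RNA. Of all counts, 0.588%, 0.909% and 0.798% came from B2 subfamilies in KO spermatogonia and 0.544%, 0.716% and 0.709% in WT spermatogonia, which overlapped. The share was 0.602%, 0.969%, 0.931% and 0.538% in KO spermatocytes and 0.170%, 0.273%, 0.366% and 0.166% in WT spermatocytes. All 4 KO spermatocyte libraries were above all 4 WT ones, and within each genotype replicates 2 and 3 were above replicates 1 and 4. Expressed as a share of TE counts alone, B2 made up 20.3% to 23.8% in WT spermatogonia, 15.5% to 22.1% in KO spermatogonia, 9.33% to 12.9% in WT spermatocytes and 6.48% to 16.9% in KO spermatocytes, where the last 2 groups overlapped. The reads were spread over many copies. In KO spermatocytes 41124 to 53591 copies had at least 1 read, against 16779 to 34869 in WT spermatocytes and 30091 to 52904 in spermatogonia of either genotype. The 100 copies with most reads held 9.75% to 13.0% of the B2 reads of KO spermatocytes and 10.0% to 21.6% of those of WT spermatocytes.

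The young subfamilies B2_Mm1a and B2_Mm1t, and to a lesser degree B2_Mm2, were higher in KO than in WT spermatocytes, while neither old subfamily passed the test. B2_Mm1a was at 1217, 2301, 2037 and 1031 CPM in KO spermatocytes and at 262, 630, 607 and 263 CPM in WT spermatocytes (CPM of TMM-scaled libraries). Every KO library was above every WT library. The log2 fold change of B2_Mm1a was 1.95 (SE 0.40, adjusted p = 0.00171, edgeR quasi-likelihood test, Benjamini-Hochberg over all genes and TE subfamilies), a 3.86-fold difference. B2_Mm1t was at 798, 1345, 1266 and 694 CPM in KO and 271, 463, 462 and 268 CPM in WT spermatocytes. Its log2 fold change was 1.53 (SE 0.30, adjusted p = 0.00146, edgeR), again without overlap. B2_Mm2 was at 1123, 1406, 1565 and 1064 CPM in KO and 580, 791, 846 and 540 CPM in WT spermatocytes, a log2 fold change of 0.95 (SE 0.23, adjusted p = 0.00408, edgeR). The call of B2_Mm2 was lost without KO replicate 2 or 3 or without WT replicate 1 or 4 (adjusted p = 0.0104 to 0.0177, edgeR) and with replicates 1 and 4 joined (adjusted p = 0.0221, edgeR).

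B3A and B3 differed little between the genotypes on this scale. B3A was at 611, 556, 722 and 621 CPM in KO and 511, 593, 620 and 510 CPM in WT spermatocytes, which overlapped, with a log2 fold change of 0.21 (SE 0.17, adjusted p = 0.304, edgeR). B3 was at 1160, 1080, 1359 and 1149 CPM in KO and 910, 1003, 1143 and 864 CPM in WT spermatocytes (log2 fold change 0.31, SE 0.18, adjusted p = 0.143, edgeR). The size of every fold change rests on the scaling. The median gene had a log2 fold change of 0.11 with TMM factors and of 0.79 with library totals alone, and under library totals the 5 subfamilies were all called higher, with log2 fold changes from 0.88 for B3A to 2.59 for B2_Mm1a. Thus 3 of 5 subfamilies were called higher and 0 lower, beside 11.3% called higher and 13.9% called lower of all 929 TE subfamilies tested. With replicates 2 and 3 of each genotype alone, an alternative chosen after seeing the data, 1 of 5 was called (B2_Mm1a, log2 fold change 1.84, adjusted p = 0.00766, edgeR).

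A ratio of 2 subfamilies within a library does not depend on the scaling. The pair shown here had the largest and the smallest log2 fold change in spermatocytes, so the ratio is not independent of the tests above. B2_Mm1a had 1.99, 4.14, 2.82 and 1.66 times as many counts as B3A in KO spermatocytes and 0.513, 1.06, 0.979 and 0.515 times as many in WT spermatocytes. The lowest KO ratio was above the highest WT ratio. In spermatogonia the ratios overlapped, at 3.83, 2.09 and 4.26 in KO and 3.50, 1.80 and 1.99 in WT.

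**Figure D1:**
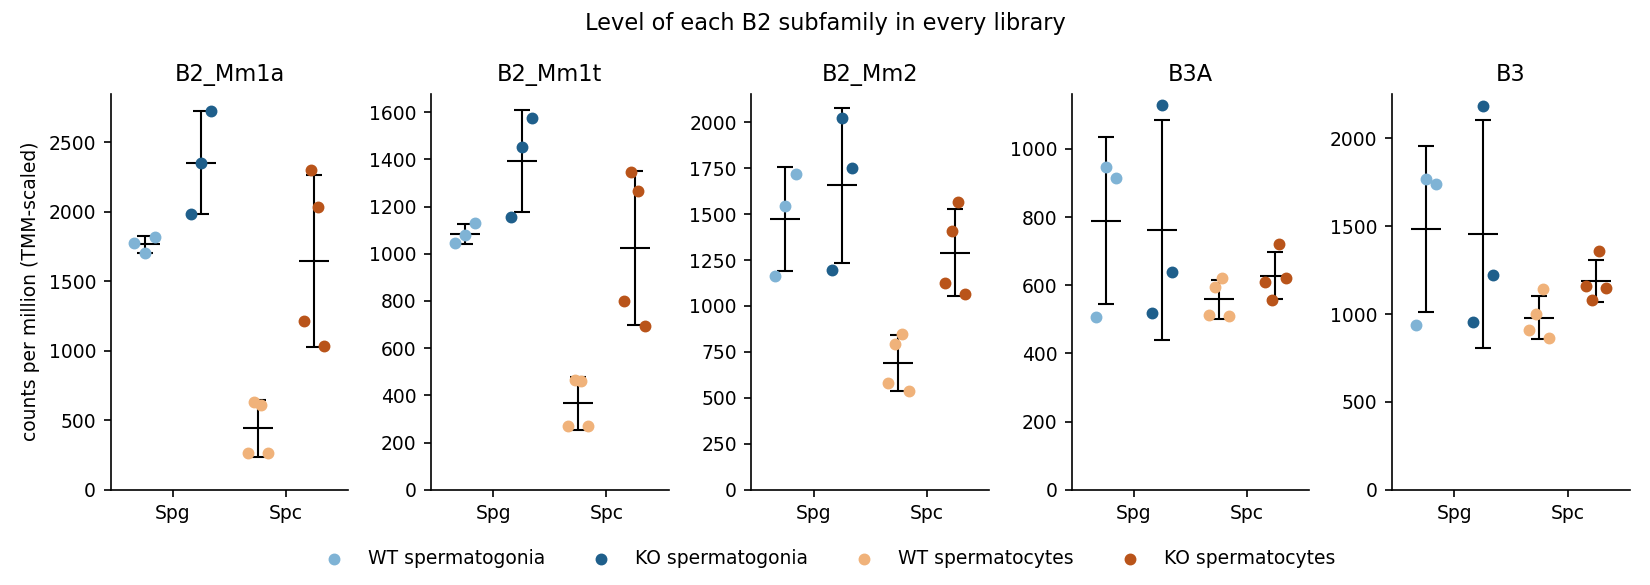
Level of each B2 subfamily in every library, in TMM-scaled CPM (points), with the mean and SD of each group (bars). B2_Mm1a fell between 1031 and 2301 CPM in KO spermatocytes and between 262 and 630 CPM in WT spermatocytes, while the points of B3A overlapped between the genotypes at both stages.

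In spermatogonia no B2 subfamily was called. B2_Mm1a was at 1981, 2354 and 2726 CPM in KO and 1773, 1703 and 1820 CPM in WT, so that the lowest KO library was above the highest WT library, but the log2 fold change of 0.41 did not pass the test (SE 0.14, unadjusted p = 0.0217, adjusted p = 0.479, edgeR). B2_Mm1t was at 1155, 1455 and 1576 CPM in KO and 1044, 1081 and 1130 CPM in WT, likewise without overlap (log2 fold change 0.35, SE 0.14, adjusted p = 0.606, edgeR). For B2_Mm2, B3 and B3A the groups overlapped, with log2 fold changes of 0.16, -0.04 and -0.06. Markers of later cells also separated the genotypes among the spermatogonia. The 9 pachytene markers summed to 221, 239 and 196 CPM in KO and 694, 2407 and 382 CPM in WT, and the 9 early meiotic markers to 1010 to 1529 CPM in KO and 1577 to 1996 CPM in WT, both without overlap, while the spermatogonial list overlapped (1750 to 2285 and 1494 to 2065 CPM). Their part in the spermatogonia results here and below was not tested. At an unadjusted p under 0.05, 2 of the 5 subfamilies passed, beside 6.19% of the 921 TE subfamilies tested. Of these TE subfamilies 1.09% were called at this stage, all of them higher.

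The difference between the stages itself was tested in a fit over all 14 libraries. The KO effect was larger in spermatocytes than in spermatogonia by a log2 of 1.47 for B2_Mm1a (SE 0.50, adjusted p = 0.0290, edgeR) and of 1.11 for B2_Mm1t (SE 0.39, adjusted p = 0.0319, edgeR), neither of which passed 0.01. For B2_Mm2 the difference was 0.73 (adjusted p = 0.0875), for B3 0.30 (adjusted p = 0.544) and for B3A 0.21 (adjusted p = 0.664, edgeR). Called at 0.01 were 0 of 5 subfamilies, beside 6.34% of the 978 TE subfamilies tested, and at an unadjusted p under 0.05 it was 3 of 5, beside 21.7%. Blocking by replicate number gave calls for 3 of 5: B2_Mm1a at 1.54 (adjusted p = 0.00452), B2_Mm1t at 1.13 (adjusted p = 0.00456) and B2_Mm2 at 0.75 (adjusted p = 0.00959, edgeR). In fits over both stages this block also joins spermatogonia and spermatocytes of the same number, which came from mice of different ages. Nothing shows that these libraries belong together, so no conclusion is drawn from these calls.

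Between the stages the young subfamilies fell in WT and were not called in KO. From WT spermatogonia to WT spermatocytes the log2 fold change was -1.52 for B2_Mm1a (SE 0.35, adjusted p = 0.00182, edgeR) and -1.09 for B2_Mm1t (SE 0.27, adjusted p = 0.00297, edgeR), and every WT spermatocyte library was below every WT spermatogonia library for both. B2_Mm2 had a log2 fold change of -0.63 (adjusted p = 0.0292, edgeR), B3 of -0.13 and B3A of -0.03, none of which was called. These 2 lower subfamilies stand beside 2.76% of the 978 TE subfamilies called lower and 22.4% called higher. The call of B2_Mm1t was lost without WT spermatocyte replicate 1 or 4, leaving B2_Mm1a as the 1 subfamily called. B2_Mm2 was called as well, which makes 3, with library totals (adjusted p = 0.00093), without the filter on low counts (adjusted p = 0.00717), with the replicate block (adjusted p = 0.00623) and without WT spermatogonia replicate 1 (adjusted p = 0.00577, edgeR). With replicates 2 and 3 of the spermatocytes alone both stayed called, B2_Mm1a at -1.18 (adjusted p = 0.00054) and B2_Mm1t at -0.89 (adjusted p = 0.00172, edgeR). From KO spermatogonia to KO spermatocytes 0 of 5 subfamilies were called, with log2 fold changes of -0.05 for B2_Mm1a, 0.02 for B2_Mm1t, 0.10 for B2_Mm2, 0.17 for B3 and 0.18 for B3A (SE 0.24 to 0.35, adjusted p = 0.702 to 0.978, edgeR), and at an unadjusted p under 0.05 the number was also 0, beside 24.8% of TE subfamilies. The background of that comparison was 1.23% of TE subfamilies called. The genotype and stage comparisons share libraries, so their values are set side by side and not combined.

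**Figure D2:**
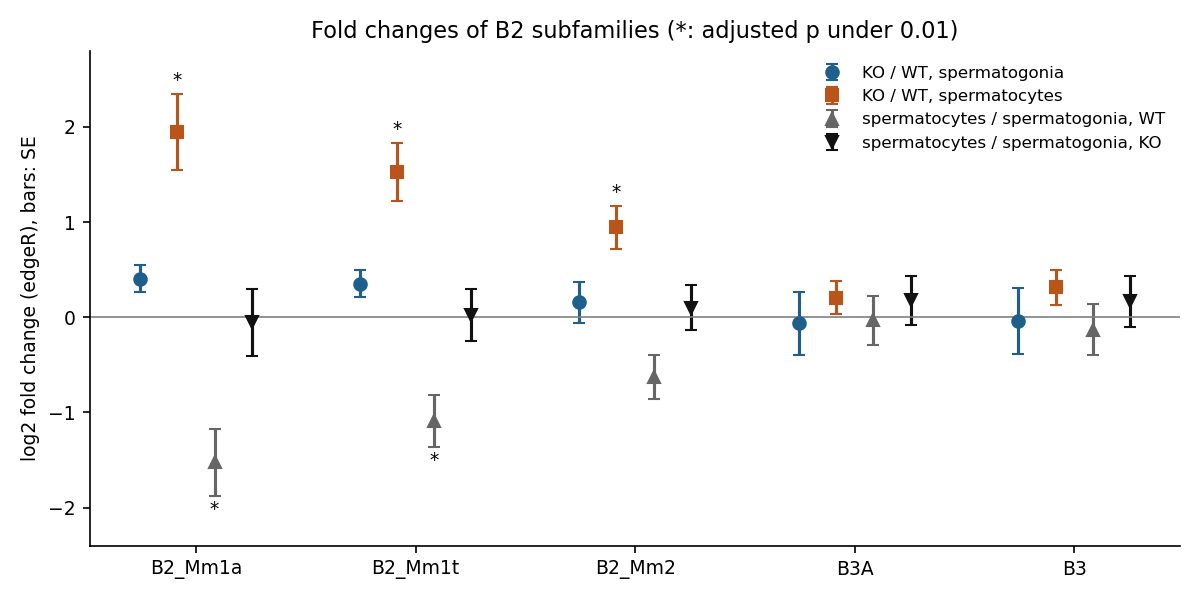
Log2 fold changes of the 5 B2 subfamilies in 4 comparisons (edgeR, bars give the SE, asterisks an adjusted p under 0.01). KO over WT in spermatocytes declined from 1.95 for B2_Mm1a to 0.21 for B3A, spermatocytes over spermatogonia ran from -1.52 to -0.03 in WT, and the same stage comparison in KO lay between -0.05 and 0.18.

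The levels of B2_Mm1a, B2_Mm1t and B2_Mm2 and of spermatogonial genes split the spermatocyte libraries alike, and in WT so did those of B3 and B3A. Replicates 2 and 3 of each genotype had more of the first 3 subfamilies and of the gene list than replicates 1 and 4, and less of the pachytene markers (254 and 410 against 457 and 532 CPM in KO, 15312 and 9564 against 18332 and 17339 CPM in WT). Replicates 2 and 3 had 1002 and 1022 CPM of the spermatogonial list in KO and 146 and 275 CPM in WT, where B2_Mm1a was at 2301 and 2037 CPM and at 630 and 607 CPM. KO replicates 1 and 4 had 411 and 423 CPM of the list with 1217 and 1031 CPM of B2_Mm1a, and WT replicates 1 and 4 had 45.1 and 40.4 CPM with 262 and 263 CPM. Within each of these pairs the library with more of the list had less B2_Mm1a, so the pattern rests on the split between the pairs alone. In WT replicates 2 and 3 B3 was at 1003 and 1143 CPM and B3A at 593 and 620 CPM, above the 910 and 864 CPM and the 511 and 510 CPM of replicates 1 and 4, whereas in KO neither had this order. The genes of the list were all detected in each of these libraries. The libraries form 2 clusters by genotype, so no correlation was computed, and the part of the cell stages in the B2 values was not tested. Sertoli and Leydig markers did not follow this order in KO, where they were higher in replicates 1 and 4 (870 and 841 CPM, and 275 and 233 CPM) than in replicates 2 and 3 (314 and 240 CPM, and 45.8 and 52.4 CPM). In WT they did follow it, with 143 and 404 CPM of Sertoli and 25.8 and 17.3 CPM of Leydig markers in replicates 2 and 3, and 135 and 108 CPM and 12.9 and 12.3 CPM in replicates 1 and 4.

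**Figure D3:**
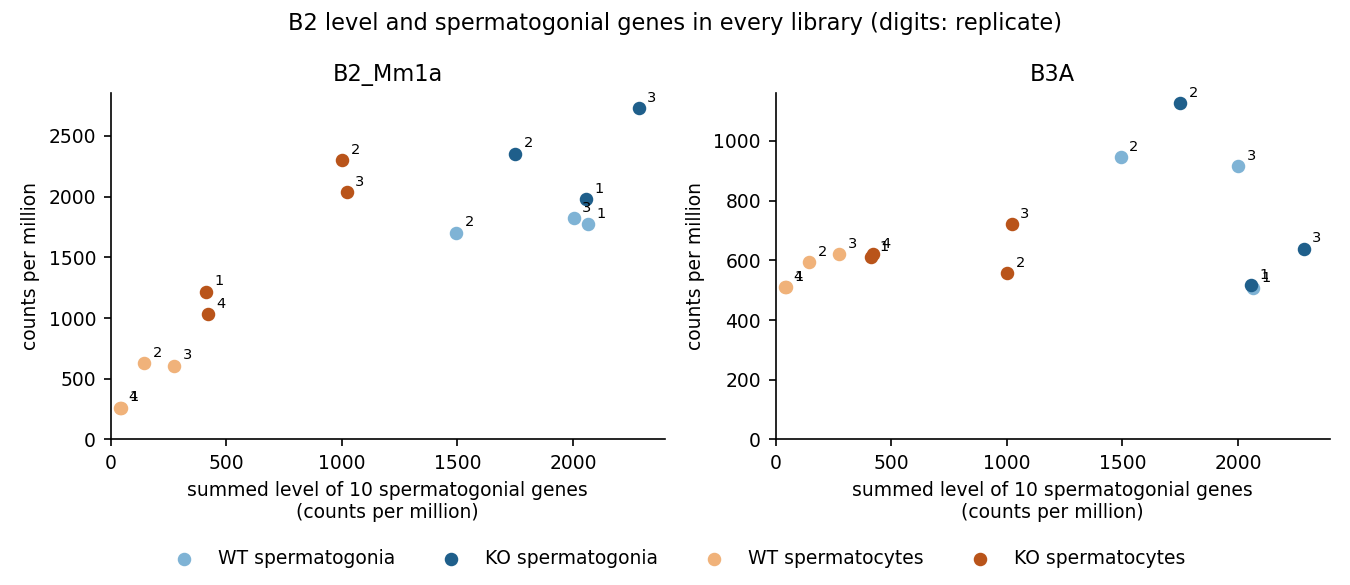
B2_Mm1a (left) and B3A (right) against the summed level of 10 spermatogonial genes, both in CPM, in the 14 libraries (digits give the replicate). WT spermatocytes lie lowest on both axes for B2_Mm1a, from 40.4 to 275 CPM of the marker sum and 262 to 630 CPM of B2_Mm1a, while B3A in the same libraries was between 510 and 620 CPM.

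The other SINE families had smaller differences, except Deu. In KO against WT spermatocytes the median log2 fold change was 0.27 over 16 Alu (B1) subfamilies, of which B1_Mm was called higher (0.89, SE 0.19, adjusted p = 0.00231, edgeR), and it was -0.01 over 4 B4, 0.09 over 4 ID and -0.11 over 4 MIR subfamilies, of which 0 were called. The 2 Deu subfamilies had a median of -1.12, and 1 was called lower. The median of the 5 B2 subfamilies was 0.95. B1_Mm belongs to the B1 family, which derives from 7SL RNA and has an RNA polymerase III promoter as well.

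Young and old copies were placed alike relative to genes but held their reads in different places. By GENCODE annotation, 38.1% of B2_Mm1a copies and 40.4% of B3 copies lay in no gene, 29.96% and 28.4% in a gene body on the opposite strand, 22.2% and 23.6% in an intron on the same strand, 8.19% and 5.98% within 5000 bp past a gene end, and 1.56% and 1.55% in an exon. The deposited TPM values could be turned back into whole reads per copy, and these were summed by position. In WT spermatogonia, copies in no gene held 697 CPM of the B2_Mm1a reads and copies in introns 441 CPM. For B3 the order was the opposite, with 162 CPM in no gene and 1062 in introns.

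In spermatocytes the difference between genotypes was greatest for young copies outside the sense strand of genes. B2_Mm1a copies in no gene summed to 654 ± 267 CPM in KO and 147 ± 80.6 in WT (SD, n = 4), a 4.45-fold difference of means, and those opposite to a gene to 372 and 83.8, a 4.44-fold difference. In introns on the same strand the difference was 3.44-fold (403 against 117 CPM), past gene ends 2.63-fold (168 against 63.9) and in exons 2.05-fold (16.3 against 7.96). The KO and WT libraries did not overlap in any of these classes except exons. For B2_Mm1t the difference was 3.69-fold in no gene, 3.25-fold on the opposite strand, 2.47-fold in introns, 2.44-fold in exons (3.82 against 1.56 CPM) and 1.63-fold past gene ends, without overlap in any class. B2_Mm2 was 2.83-fold higher on the opposite strand and 2.52-fold higher in no gene but 1.53-fold in introns. Introns held 53.1% of the B3A and 53.9% of the B3 reads of WT spermatocytes and 66.3% and 64.5% of those of KO spermatocytes. There the ratio of means was 1.39 for B3A (406 against 292 CPM) and 1.44 for B3 (750 against 522 CPM), with overlap of the groups in both. B3A on the opposite strand was at 43.5 against 33.1 CPM, also with overlap. For B3A the ratio of means was 0.817 in no gene, where the groups overlapped, and 0.658 past gene ends, where every WT library was above every KO library. For B3 it was 1.01 in no gene, 0.891 on the opposite strand and 0.936 past gene ends, with overlap, and 0.691 in exons, where every WT library was above every KO library. These sums over copies are descriptions and carry no test. The direction for the old subfamilies rests on the scaling. On library totals B3A turned from a log2 ratio of -0.60 to 0.13 past gene ends, where the groups then overlapped, and from -0.29 to 0.45 in no gene, where every KO library was then above every WT library, and B3 in exons turned from -0.53 to 0.21, with overlap.

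**Figure D4:**
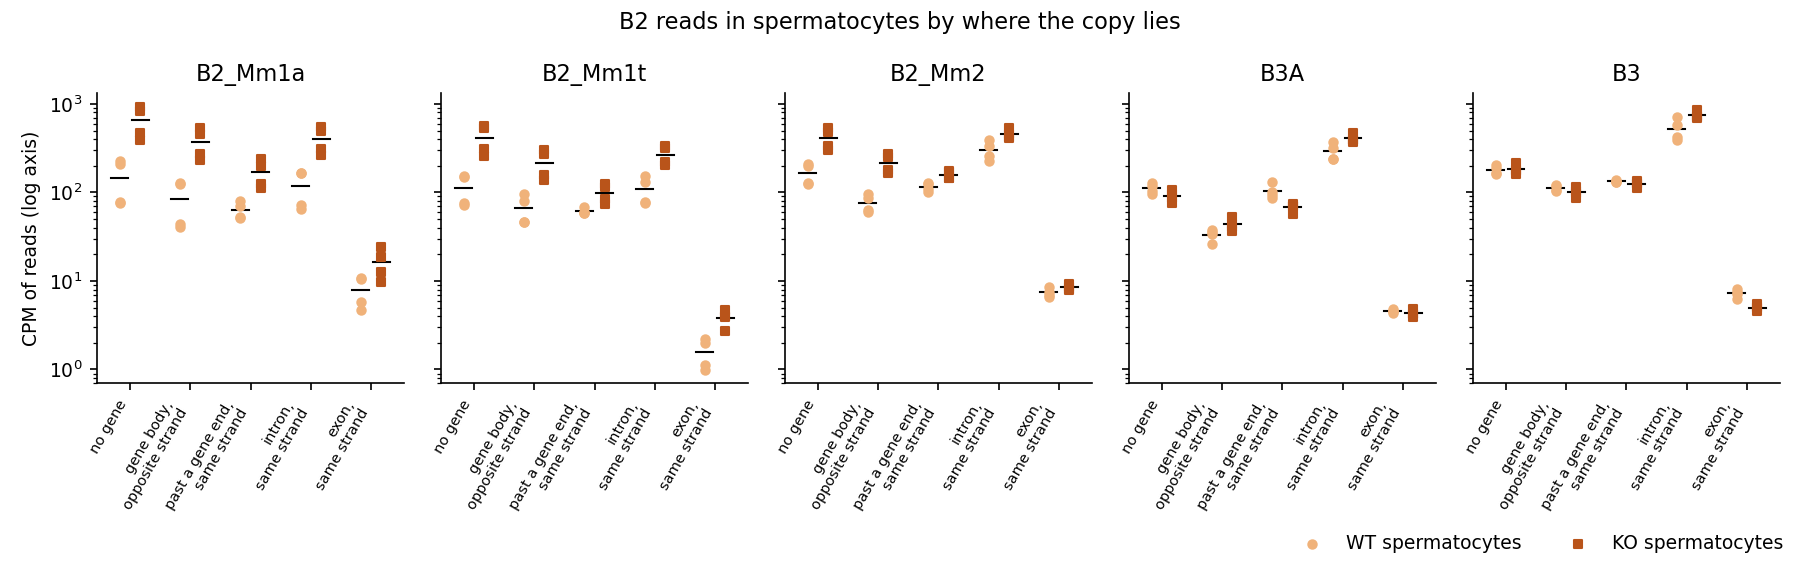
CPM of reads (log axis) on the copies of each subfamily by position relative to GENCODE genes, in KO and WT spermatocytes (points are libraries, lines are means). For B2_Mm1a and B2_Mm1t the 4 KO libraries lie above the 4 WT libraries in no gene, on the opposite strand, past gene ends and in introns, and for B3 the groups overlap in no gene, at means of 182 and 180 CPM.

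The copies that carried most reads in WT spermatogonia were followed into the spermatocytes, which had no part in their choice. Of the 100 B2_Mm1a copies with the highest mean reads in WT spermatogonia (101 to 1336 reads), 87 had all 4 KO spermatocyte libraries above all 4 WT ones and 0 the reverse, with a median log2 ratio of KO to WT of 2.72. For B2_Mm1t the number was 79 of 100 (2 the reverse, median 2.79) and for B2_Mm2 76 of 100 (1 the reverse, median 2.62). For B3A it was 31 of 100 (9 the reverse, median 1.21) and for B3 39 of 100 (5 the reverse, median 1.14). Across all TE copies tested with limma, 19.1% had groups without overlap in either direction, as had 15.2% of B2 copies and 11.5% of SINE copies of other families. Those copies were not chosen for many reads, so these shares are not matched in depth to the 100 copies of each subfamily. The old copies chosen in this way lay mostly in introns (79 of 100 for B3A and 76 for B3), and the young ones mostly outside the sense strand of genes, with 45 of 100 B2_Mm1a copies in no gene and 17 opposite to a gene. Ratios were taken on CPM of reads with 0.01 added, so they understate the change of copies with few reads.

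Single copies were tested across all TE copies with limma on log2(TPM + 0.1), where TPM is the authors' value per copy and is scaled over TE copies alone. In spermatocytes 3116 of 45211 B2 copies tested were called (6.89%), 2042 higher (4.52%) and 1074 lower in KO. Of 241893 TE copies of all families 11.2% were called, 7.17% higher and 4.06% lower, and of the SINE copies of other families 6.52%, with 3.43% higher and 3.08% lower. The split depends on the fit. With each library centred on its median copy, 36 were higher and 3205 lower, and with the replicate block 324 were higher and 498 lower. The called copies had few reads, with a median of 3.50 reads per library, and 1605 of them had 0 reads in all WT libraries and 642 in all KO libraries. A count test on the recovered reads (edgeR, scaled by the factors of the count tables), added after seeing the data, tested 3624 B2 copies with enough reads and called 1277 higher and 501 lower, beside 47.8% higher and 17.4% lower of 28404 TE copies of all families. By subfamily it called 498 higher and 26 lower of 862 B2_Mm1a copies, 306 and 41 of 599 B2_Mm1t copies and 260 and 120 of 729 B2_Mm2 copies. Of 464 B3A copies 70 were called higher and 94 lower, and of 970 B3 copies 143 higher and 220 lower. Copies reached these tests only with enough reads in the higher group, so the counts describe the copies tested and not the subfamilies.

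Copies on the sense strand of a gene can be compared with that gene. Over 614 B3 copies in introns of 535 genes that had a count test in spermatocytes, the log2 fold change of the copy and of its host gene had a Pearson r of 0.777 (Spearman rho 0.662). Over 292 B3A copies r was 0.793, over 280 B2_Mm2 copies 0.756, over 162 B2_Mm1t copies 0.486 and over 170 B2_Mm1a copies 0.362. The median B2_Mm1a copy was above its host gene by 2.05 on the log2 scale and the median B3 copy by 1.27. All copies compared had passed a filter on their own reads, and the part of that filter in these offsets was not tested. These are correlations across copies, which share libraries and in part host genes, so no p is given. In spermatogonia r was 0.0129 for 398 B2_Mm1a copies, 0.109 for 303 B2_Mm1t copies and 0.141 for 617 B2_Mm2 copies. It was 0.345 for 601 B3A copies and 0.187 for 1180 B3 copies.

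The 5 copies of highest mean TPM in spermatogonia had between 7 and 22 reads in WT spermatocyte replicates 1 and 4. B2_Mm1a_dup15123 lies in no gene (chr15:51906503-51906689, plus strand), 6735 bp past the long non-coding RNA Gm48923. It had 929, 2203 and 1873 reads in KO and 1029, 1345 and 1635 reads in WT spermatogonia. Among spermatocytes it had 659, 2494, 1530 and 780 reads in KO and 22, 122, 306 and 8 in WT, without overlap, and the log2 difference of TPM was 3.62 (SE 0.85, adjusted p = 0.0129, limma), which missed 0.01. The count test gave 3.15 for the same copy (SE 0.87, adjusted p = 0.00203, edgeR). B2_Mm2_dup57287 lies in no gene (chr10:128332601-128332787, minus strand), 30312 bp past Coq10a, which encodes a coenzyme Q binding protein. It had 1340, 1453 and 1629 reads in KO and 1068, 690 and 1198 in WT spermatogonia, and 1134, 1714, 1877 and 843 in KO and 7, 181, 259 and 12 in WT spermatocytes (log2 difference of TPM 3.96, SE 0.93, adjusted p = 0.0128, limma). The count test called this copy (3.17, SE 0.88, adjusted p = 0.00225, edgeR).

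The other three were likewise lowest in WT spermatocyte replicates 1 and 4. B2_Mm1a_dup14844 (chr14:77573535-77573713, minus strand), within 5000 bp past a gene end on its own strand and opposite to Enox1, had 595, 1247, 1219 and 427 reads in KO and 10, 105, 149 and 10 in WT spermatocytes and was called (log2 difference of TPM 3.55, SE 0.76, adjusted p = 0.00781, limma). B2_Mm1t_dup1346 (chr1:181889451-181889625, plus strand) lies in no gene, 73676 bp past Dnah14, a gene for a dynein heavy chain. It had 862, 1802, 1673 and 680 reads in KO and 7, 283, 172 and 7 in WT spermatocytes (log2 difference of TPM 3.94, SE 1.04, adjusted p = 0.0229, limma). B2_Mm1t_dup15517 (chr11:79168913-79169089, plus strand) lies in no gene, 137855 bp past the antisense RNA Gm11201, and had 584, 1763, 1111 and 460 reads in KO and 21, 181, 164 and 18 in WT spermatocytes (log2 difference of TPM 2.95, SE 0.69, adjusted p = 0.0120, limma). Neither passed 0.01 with limma, while the count test called both (2.92, adjusted p = 0.00543, and 2.84, adjusted p = 0.00222, edgeR). The count test of copies was not run, here or elsewhere, with replicates 1 and 4 joined. In all 5 copies WT replicates 1 and 4 were the lowest 2 of the 14 libraries. In spermatogonia the reads of B2_Mm1a_dup14844 were 1330, 1080 and 1472 in KO and 1083, 740 and 726 in WT. Those of B2_Mm1t_dup1346 were 720, 1661 and 1698 in KO and 820, 723 and 1036 in WT, and those of B2_Mm1t_dup15517 were 1011, 1127 and 1638 in KO and 874, 830 and 986 in WT. At that stage the log2 differences of TPM between KO and WT of the 5 copies ran from 0.09 to 0.46 and none was called (adjusted p = 0.784 to 0.835, limma).

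A single copy was called in spermatogonia, of 53556 B2 copies tested (0.00187%), beside 0.00911% of 252388 TE copies, or 0.00872% called higher. B2_Mm1t_dup17652 (chr13:40625808-40626000, plus strand) lies in no gene, 91860 bp past the pseudogene Gm47038. It had 280, 144 and 328 reads in KO spermatogonia and 6, 10 and 7 in WT spermatogonia, a 29.98-fold difference of mean CPM. In spermatocytes it had 120, 219, 225 and 81 reads in KO and 0, 3, 2 and 0 in WT. The groups did not overlap at either stage. The log2 difference of TPM in spermatogonia was 4.79 (SE 0.55, adjusted p = 0.00224, limma). With the replicate number as a block, the same difference of 4.79 had an adjusted p of 0.408 (limma). Without any 1 of the 6 libraries it had an adjusted p between 0.0360 and 0.834 (limma), so that the count of called copies was 0 in each of these settings. With each library centred on its median copy it was not called either (3.81, adjusted p = 0.845, limma), and 1 other B2 copy was called lower. The count test called it too (log2 fold change 4.89, SE 0.62, adjusted p = 7.33e-05, edgeR) and in all called 18 B2 copies higher and 5 lower (0.0755%) of 6621 tested in spermatogonia (0.347%), beside 13.8% of 30843 TE copies (13.3% higher and 0.431% lower) and 0.281% of the SINE copies of other families.

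The largest rises of called copies in spermatocytes were from 0 reads in all 4 WT libraries. B3A_dup8635 (chr2:56775222-56775399, minus strand) lies in no gene, 331430 bp past Nr4a2, a gene for a nuclear receptor. It had 131, 142, 184 and 164 reads in KO and 0 in each WT spermatocyte library, at least 136-fold higher in KO when 3 counts are allowed over the WT group. In spermatogonia it had 74, 94 and 49 reads in KO and 0 in each WT library, at least 67.5-fold higher. B3A_dup177 (chr1:11776586-11776791, minus strand), opposite to A830018L16Rik, had 137, 110, 107 and 159 reads in KO spermatocytes, 49, 42 and 25 in KO spermatogonia and 0 in all 7 WT libraries. It was at least 113-fold higher in KO spermatocytes and at least 35.9-fold higher in KO spermatogonia. The count test called both in spermatogonia as well (B3A_dup8635, adjusted p = 0.000106, and B3A_dup177, adjusted p = 0.000303, edgeR), while limma on TPM did not (adjusted p = 0.0250 and 0.109).

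B2_Mm1a_dup11942 (chr11:76281870-76282066, plus strand), opposite to Nxn, the gene for nucleoredoxin, had 119, 221, 169 and 55 reads in KO spermatocytes and 0 in each WT library, at least 120-fold higher. It was present in spermatogonia of both genotypes, with 164, 78 and 104 reads in KO and 4, 29 and 7 in WT. B2_Mm2_dup53802 (chr10:57399493-57399678, plus strand) lies in no gene, 8337 bp past the pseudogene Gm9129, with 147, 49, 162 and 163 reads in KO spermatocytes and 0 in each WT library. B2_Mm1a_dup18120 (chr19:42085055-42085072, plus strand), opposite to Morn4, is a fragment of 18 bases, shorter than a read, with 21, 59, 57 and 22 reads in KO spermatocytes and 0 in each WT library. Its TPM is large for its reads because TPM divides by length. In spermatogonia it was read in both genotypes, with 10, 57 and 62 reads in KO and 17, 27 and 11 in WT, and B2_Mm2_dup53802 had 9, 35 and 21 reads in KO and 0, 7 and 1 in WT.

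The largest falls of called copies had 0 reads in all 4 KO libraries. B3_dup112795 (chr12:98449570-98449775, plus strand), opposite to the potassium channel gene Kcnk10, had 329, 645, 397 and 336 reads in WT and 0 in each KO spermatocyte library, at least 885-fold lower in KO. It also had 14, 110 and 12 reads in WT and 0 in each KO spermatogonia library, where the pachytene markers were at 694, 2407 and 382 CPM in WT and 196 to 239 CPM in KO. B3A_dup90869 (chr19:7639644-7639785, plus strand), which begins 1 bp past the end of Hrasls5, had 165, 366, 178 and 192 reads in WT spermatocytes. B3A_dup38193 (chr7:52889235-52889408, plus strand) lies in no gene, 133506 bp past the pseudogene Gm6181, and had 241, 212, 164 and 250 reads in WT spermatocytes, 17, 81 and 11 in WT spermatogonia, in the order of the pachytene markers of these libraries, and 0 in each KO library. B3_dup93211 (chr10:62705824-62706003, plus strand), within 5000 bp past a gene end on its own strand and opposite to Stox1, had 184, 299, 327 and 133 reads in WT spermatocytes. B2_Mm2_dup31910 (chr6:127838290-127838310, plus strand) is a fragment of 21 bases in no gene, 69384 bp past Gm42738, with 63, 115, 50 and 47 reads. For these 4 copies the difference was at least 472-fold, 464-fold, 472-fold and 144-fold. In the same spermatocytes the pachytene markers were lower in KO by the range given above, and the part of stage in these falls cannot be told apart from genotype.

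Among the 5 copies of highest mean TPM in spermatocytes were 3 of those described for spermatogonia and a further pair. B3A_dup34631 (chr6:127783160-127783338, minus strand), 4745 bp past the annotated microRNA gene Mir7233, had 1450, 2603, 955 and 1523 reads in WT spermatocytes and 4, 0, 6 and 19 in KO. Its log2 difference of TPM was -9.89 (SE 1.18, adjusted p = 0.000422, limma), and it had 70, 357 and 20 reads in WT and 0 in each KO spermatogonia library, again in the order of the pachytene markers (694, 2407 and 382 CPM in WT, 196 to 239 CPM in KO). B3A_dup41974 (chr8:19695502-19695519, plus strand) is a fragment of 18 bases in an intron of the pseudogene Gm6483, with 137, 89, 189 and 116 reads in KO and 49, 93, 95 and 58 in WT spermatocytes, which overlapped (81, 131 and 47 in KO and 45, 95 and 96 in WT spermatogonia, log2 difference of TPM in spermatocytes -0.07, SE 0.20, adjusted p = 0.826, limma).

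**Figure D5:**
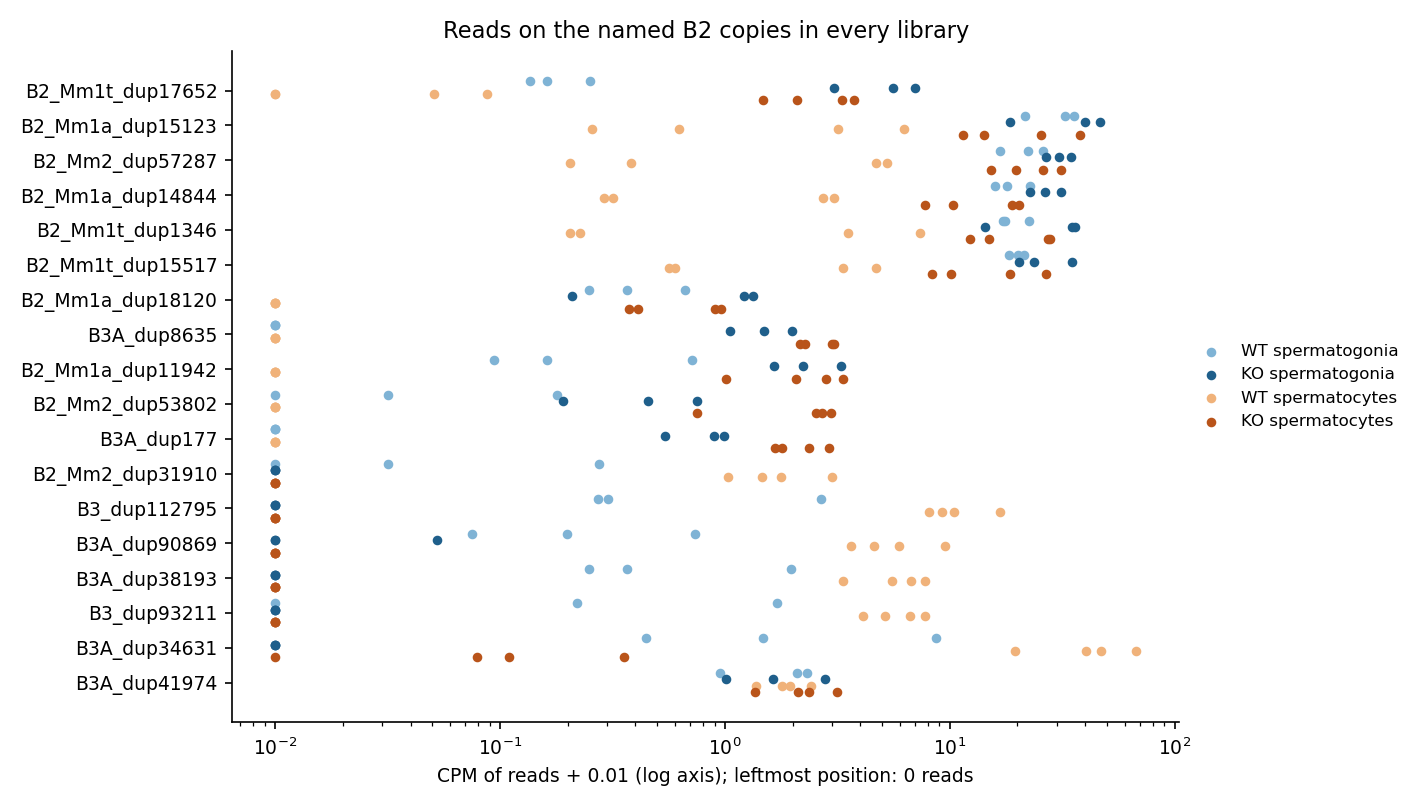
CPM of reads plus 0.01 (log axis) on the 18 named B2 copies in each of the 14 libraries, coloured by group. The copies of highest level in spermatogonia lie together in all groups except WT spermatocytes, B3A_dup8635 and B3A_dup177 have no reads in any WT library, and the 5 largest falls have no reads in any KO spermatocyte library.

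The genes that neighbour or host these copies moved in both directions. In KO against WT spermatocytes, Morn4 and Nxn, whose opposite strand holds a copy that was higher in KO, had log2 fold changes of -4.09 (SE 0.30, adjusted p = 6.4e-06, edgeR) and -4.61 (SE 0.41, adjusted p = 1.55e-05, edgeR). Enox1, opposite to B2_Mm1a_dup14844, was at -2.18 (adjusted p = 0.000281, edgeR). Stox1, opposite to the falling copy B3_dup93211, rose by 2.68 (SE 0.74, adjusted p = 0.0085, edgeR). In the same direction as their copy were Gm9129, a pseudogene upstream of B2_Mm2_dup53802, with a log2 fold change of 9.71 (adjusted p = 0.00011, edgeR), Nr4a2 with 3.06 (adjusted p = 0.00441, edgeR), Coq10a with 1.73 (adjusted p = 0.00373, edgeR) and Mir7233 with -9.30 (adjusted p = 8.83e-05, edgeR). A830018L16Rik (2.23, adjusted p = 0.0149), Kcnk10 (-2.93, adjusted p = 0.0167) and Gm6483 (-0.65, adjusted p = 0.163, edgeR) were not called, although A830018L16Rik was in 5 of 18 alternative settings (an adjusted p under 0.05, DESeq2, library totals, the replicate block, and replicates 2 and 3 alone) and Kcnk10 in 3 of 17 (an adjusted p under 0.05, DESeq2, and without KO replicate 3). Of 18 alternative settings, the call of Stox1 was lost in 8, that of Nr4a2 in 7 and that of Coq10a in 7, among them the joining of replicates 1 and 4, replicates 2 and 3 alone, and leaving out WT replicate 1 or 4 or KO replicate 1. Stox1 and Nr4a2 also lost it without KO replicate 2 or WT replicate 2, Stox1 without KO replicate 3, and Coq10a without KO replicate 4 and with the replicate block. The other 7 neighbours named with the copies have no test here. They had too few counts, or no row under the gene identifier of the annotation used for positions.

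Genes of the RNA polymerase III machinery moved in both directions in spermatocytes. Of 13 genes for subunits of the enzyme 3 were higher and 5 lower in KO, with a median log2 fold change of -0.53, and of 12 genes for its initiation factors and for Maf1, the repressor of the enzyme, 3 were higher and 5 lower (median -0.49). Of all genes tested 27.6% were called higher and 30.6% lower. The largest rise and the largest fall called in each of these 2 lists were in Polr3g, a subunit that is typical of undifferentiated cells (log2 fold change 2.23, SE 0.52, adjusted p = 0.0036, edgeR), in Polr1d, a subunit shared with RNA polymerase I (-2.203, adjusted p = 2.83e-05, edgeR), in Bdp1, a part of the initiation factor TFIIIB (1.56, adjusted p = 0.000375, edgeR), and in Tbp, the TATA-binding protein used by all nuclear RNA polymerases (-2.05, adjusted p = 5.2e-05, edgeR). Of 15 genes for proteins that bind, process or repress SINE elements or their RNA 8 were higher and 2 lower (median 0.92). The largest rise was in Sp100, a nuclear body protein (4.99, SE 0.78, adjusted p = 0.000388, edgeR), and the largest fall in Trim28, a corepressor of transposable elements (-1.49, adjusted p = 0.00018, edgeR). The call of Polr3g was lost in 5 of 18 alternative settings, namely without KO replicate 2 or WT replicate 1 or 2, with replicates 1 and 4 joined and with replicates 2 and 3 alone, and those of Bdp1, Sp100 and Trim28 in the last of these alone. In spermatogonia 0 of the 39 genes tested of the 3 lists were called by edgeR, 0 also at an unadjusted p under 0.05, beside 0.0629% of all genes.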

How the data were processed

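Gene and TE subfamily counts and TPM per TE copy were deposited for 14 libraries. The authors trimmed paired reads with cutadapt (4.0), aligned them to GRCm38 with STAR (2.7.3a) and counted genes and TEs in a mode that shares reads among matching places, so that reads of near-identical young copies are divided between copies and single-copy values are uncertain. The deposited counts are not normalised. The deposited TPM values are scaled over TE copies alone, and a copy missing from a table was given 0. TPM times length gave whole reads within 0.01.

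Counts were tested with edgeR (4.0.16) quasi-likelihood fits, TMM factors and low-count filtering, and copies with limma (3.58.1) on log2(TPM + 0.1) for a mean TPM of at least 0.5. Calls were made at a Benjamini-Hochberg adjusted p under 0.01 over all features tested. Total counts of 40555700 to 53323700 per library set the precision. Positions came from a GENCODE annotation of GRCm38 through bedtools (2.31.1), and a gene end window was 5000 bp. The scripts were tested on simulated data. The members and lists were chosen with earlier results of these data known. Copies were named by fixed rules: the 5 largest rises and the 5 largest falls among called copies, and the 5 of highest mean TPM, at each stage. Deviations of KO and WT spermatogonia libraries from their group means correlated at 0.757, 0.181 and 0.297 for libraries of the same number. KO replicate 2 with WT replicate 3 gave 0.338, so pairing by number was not established. Alternatives were DESeq2 (1.42.0), other scaling, filters, pseudocounts, a replicate block, and leaving out or joining libraries. Promoter windows came from RefSeq. No genome sequence was used here, so sequences were read from transcripts and promoter windows.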

Additional observations from a re-analysis of the deposited data

Results flagged for a closer look

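The KO effect on 2 subfamilies differed between the stages at an adjusted p under 0.05 in the test of that difference. For B2_Mm1a the KO effect in spermatocytes exceeded that in spermatogonia by 1.47 on the log2 scale (adjusted p = 0.0290, edgeR), and for B2_Mm1t by 1.11 (adjusted p = 0.0319, edgeR). Neither passed 0.01, while with the replicate block both did (1.54, adjusted p = 0.00452, and 1.13, adjusted p = 0.00456, edgeR), as did B2_Mm2 (0.75, adjusted p = 0.00959, edgeR). That block also joins libraries of the same number across the stages, which nothing shows to belong together, so no conclusion is drawn from it. Among 44 groups of 4 libraries examined, 0 had a library standing apart from the others by its gap to the next value. A split of the libraries into pairs would not be flagged in this way.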

How the results depend on the processing

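The number of B2 subfamilies called in KO against WT spermatocytes was 3, and it was 5 with library totals and 1 with replicates 2 and 3 alone. For the difference between stages it was 0, against 2 at an adjusted p under 0.05, 1 with library totals and 3 with the replicate block. In WT spermatocytes against WT spermatogonia it was 2, and 1 to 3 when 1 library was left out. The replicate block changed no call of a B2 subfamily in spermatogonia. Spermatocyte numbers did not pair the libraries (correlations 0.0608, 0.190, -0.0333 and 0.113), and the block lowered the number of called copies there from 3116 to 822, of which 324 were higher and 498 lower. That number was 6346 at an adjusted p under 0.05, 2041 for a mean TPM of at least 2, 1877 above 0, 1137 with replicates 1 and 4 averaged, 1778 by edgeR on reads, and 1559 to 4162 when 1 library was left out, lowest without WT replicate 1 (1559) or 4 (1579). In spermatogonia the number of called copies was 1, and it was 4 at an adjusted p under 0.05, 1 with copies centred on the median copy (another copy, lower in KO), 15 with a pseudocount of 1, 0 with 0.01, 0 for a mean TPM of at least 2, 16 above 0, 0 with the replicate block, 23 by edgeR on reads and 0 without any 1 library. Of the 40 listed genes 26 were called in spermatocytes, 6 with replicates 2 and 3 alone and 16 with replicates 1 and 4 joined.

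Values near 0 changed sign. In KO spermatocytes against KO spermatogonia, B2_Mm1a was at 0.088 with the replicate block and 0.10 with replicates 1 and 4 joined, and B2_Mm1t at -0.018 by DESeq2, -0.019 with DESeq2 size factors, -0.043 with library totals, -0.021 with factors from genes alone and -0.042 without the filter. With 1 library left out, that comparison ran from -0.33 to 0.064 for B2_Mm1a, -0.21 to 0.11 for B2_Mm1t, -0.14 to 0.19 for B2_Mm2, -0.11 to 0.51 for B3 and -0.081 to 0.50 for B3A. In KO against WT spermatogonia it ran from -0.0014 to 0.35 for B2_Mm2, -0.45 to 0.20 for B3 and -0.45 to 0.16 for B3A. B3A in WT spermatocytes against WT spermatogonia was at 0.044 with the replicate block and 0.072 with replicates joined, and ran from -0.42 to 0.038. With copies centred on the median copy, spermatogonia gave -0.89 for B2_Mm1a_dup15123, -0.52 for B2_Mm2_dup57287, -0.52 for B2_Mm1a_dup14844, -0.56 for B2_Mm1t_dup1346 and -0.68 for B2_Mm1t_dup15517. B2_Mm1a_dup15123 ran from -0.11 to 0.30 with 1 library left out. In spermatocytes B3A_dup41974 was at 0.29 by edgeR on reads and ran from -0.20 to 0.10, and Gm6483 was at 0.12 with library totals. The cause of these changes was not tested. Copies with few reads limit the copy tests.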
